A study of Mus musculus with 6 samples.

Results

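The ITM2 genes Itm2a, Itm2b and Itm2c were compared between pRb-expressing and pRb-deficient mouse osteoblasts. They were taken as every probe set of the array with 1 of these 3 symbols as its only annotated gene, which gave 6 probe sets of 45037, or 3 genes of 18193. The family was selected on the difference between these same groups, so its own differences are given as a description, without a test. RNA came from MC3T3 cells, here osteoblasts isolated by trypsin and collagenase from the calvariae, the topmost skull bones, of mice at embryonic day 18.5 and immortalized by serial 3T3 passage. The flox19-RB1 allele was kept in a C57BL/6 background and combined with 2.3- and 3.6-Col1a1-Cre transgenes, and the animals used were F2 offspring of RBf19/WT;Col1a1-Cre mice bred to each other. The Col1a1 fragments, from the gene for the collagen I chain, direct Cre to osteoblasts. The 3 pRb-deficient cultures are labelled Rb Knockout. The 3 pRb-expressing cultures, labelled wild type, came from control littermates. The paper writes the array cells as MC3T3 Rb+/+ and MC3T3 Rb−/−, and does not otherwise give the Cre and flox19 status of the littermates. The labels name no drug or time point. According to the paper, the lines were collected while in the proliferative phase of growth. Its methods describe a differentiation medium with dexamethasone, but whether the array cultures had it is not stated. The labels name the cultures biological replicates. Whether the 3 cultures of a group were separate lines or animals is not stated, so the p-values reflect the spread among these cultures alone, which may be technical.

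The ITM2 proteins cross the membrane once, with the amino end in the cytoplasm, and carry outside it a BRICHOS domain, a fold named after BRI, chondromodulin and surfactant protein C and linked to the folding of the protein it sits in. ITM2A was described early as a marker of cartilage and bone forming cells and is also induced in thymocytes and in muscle precursors. ITM2B, or BRI2, is cut by furin, which frees a short peptide that forms amyloid in familial British and Danish dementia. ADAM10 then sheds its BRICHOS domain, and SPPL2 proteases cut the rest within the membrane. ITM2B and ITM2C, or BRI3, bind the amyloid precursor protein and limit its cleavage.

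Each culture was hybridized to 1 Affymetrix Mouse Genome array. Values are MAS5 signals on a linear scale in arbitrary units. For log2 values, signals under 32 were set to 32, because 24.4% to 26.6% of the probe sets of an array lay at or below that level. All log2 fold changes are pRb-deficient over pRb-expressing. With limma and an adjusted p threshold of 0.05, 35.0% of the probe sets tested passed in either direction. By gene, with the brightest probe set for each, 18.5% of 16308 genes were higher and 23.4% were lower in pRb-deficient cultures. Rb1, the targeted gene, had signals of 1124, 1119 and 1106 in pRb-expressing cultures, and of 143, 127 and 124 in those lacking pRb. The place of these probes with respect to the floxed exon was not examined. Log2 signals correlated at 0.974 or more across probe sets within a group and at 0.917 or less between groups.

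The 3 genes differed in 3 ways between the groups. Itm2a was bright in pRb-deficient cultures, and 1 of its probe sets was at background in pRb-expressing ones. Itm2b was bright in both, with group means close to each other. Itm2c was lower in pRb-deficient cultures. Of the 6 probe sets, 4 had no overlap between the groups, against 43.0% of all probe sets on the array. In bulk RNA, fewer cells that express a gene and less RNA per cell cannot be told apart.

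Itm2a, also called E25A, lies on the X chromosome and has 2 probe sets. The brighter, 1423608_at, had signals of 21.4, 31.7 and 8.5 in pRb-expressing replicates 1, 2 and 3, and of 15722, 13063 and 8350 in pRb-deficient replicates 1, 2 and 3. All 3 pRb-expressing values were at or below 32, the level treated as background, so the means of 20.5 ± 11.6 and 12378 ± 3733 (SD, n = 3 each) differed at least 374-fold on geometric means, taken against a level of 32. The log2 fold change against that floor was 8.55 (standard error 0.22). Its size depends on the floor, and it moved to 6.90 with a floor of 100 and to 9.38 with none beyond a signal of 1.

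The other Itm2a probe set, 1451047_at, had signals of 265, 311 and 308 with pRb and of 14253, 10435 and 6333 without it. The groups were again far apart, but here the pRb-expressing arrays lay above the floor. Means were 295 ± 25.5 and 10340 ± 3961 (SD, n = 3 each), a 33.3-fold difference on geometric means and a log2 fold change of 5.06 (standard error 0.27). The lowest pRb-deficient signal was 20.4 times the highest pRb-expressing one. The probe sets thus share a direction and differ in size, with the brighter one set by the floor.

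Itm2b lies on chromosome 14 near Rb1 and has 3 probe sets. The brightest, 1418000_a_at, read 14222, 14897 and 13630 with pRb and 13765, 14130 and 11772 without it. The groups overlapped, with means of 14250 ± 634 and 13222 ± 1269 (SD, n = 3 each). The log2 fold change was −0.11 (standard error 0.09), and it turned to 0.042 with quantile normalization, so no direction is given for this probe set. It went to −0.03 without pRb-deficient replicate 3.

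The Itm2b probe set 1417999_at read 12397, 11913 and 11949 with pRb and 11840, 11121 and 9268 without it. All 3 pRb-deficient values lay below all pRb-expressing ones, by a margin that was small at the nearest pair. Its means were 12086 ± 270 and 10743 ± 1327 (SD, n = 3 each), a log2 fold change of −0.18 (standard error 0.10), which became −0.07 without pRb-deficient replicate 3. The third Itm2b probe set, 1418001_at, stayed between 2.30 and 12.9 on all 6 arrays, under the floor, and was not tested. It gives no level for the gene, and the 2 bright probe sets carry the result.

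Itm2c, also called BRI3, lies on chromosome 1 and has 1 probe set, 1415961_at. Its signals were 8314, 8682 and 7964 with pRb and 4350, 4266 and 2896 without it. The groups did not overlap. Means were 8320 ± 359 and 3838 ± 816 (SD, n = 3 each), 2.20-fold lower without pRb on geometric means. The log2 fold change was −1.14 (standard error 0.16). Among all genes tested, 6.67% had a lower log2 fold change than Itm2c and 48.2% a lower one than Itm2b, where the median gene was at −0.09. No rank is given for Itm2a, since values at the floor have no order.

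**Figure D1:**
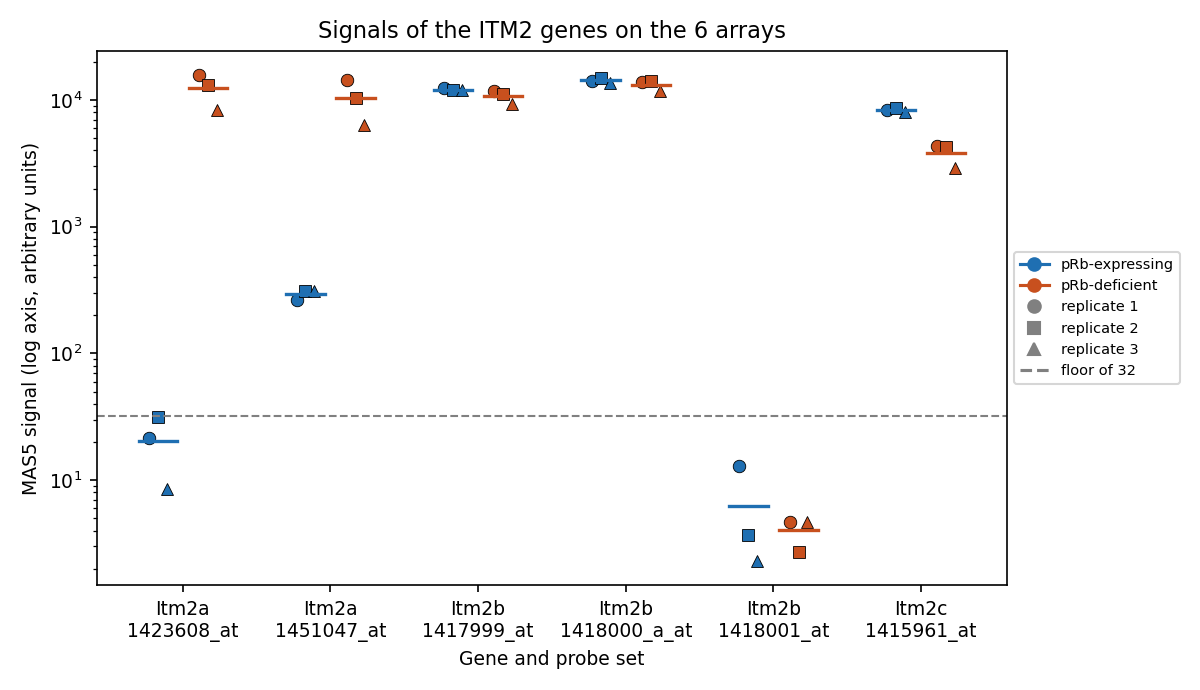
MAS5 signals of the 6 ITM2 probe sets on a log axis in arbitrary units, with 1 point per array, replicates by symbol, horizontal lines at the group means and a dashed line at the floor of 32. Both Itm2a probe sets separate the groups widely, the bright Itm2b sets lie close together, Itm2c is lower in all 3 pRb-deficient arrays, and the dim Itm2b set is below the floor throughout.

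For the 4 probe sets above the floor in both groups, the pRb-deficient cultures varied more than the pRb-expressing ones. Their coefficient of variation was 30.2% and 38.3% for the Itm2a probe sets, 9.60% and 12.4% for the bright Itm2b sets and 21.3% for Itm2c. In pRb-expressing cultures it was 8.64% for 1451047_at, 4.45% and 2.23% for the bright Itm2b sets and 4.31% for Itm2c. For 1423608_at it was 56.6% there, over values that all lie below the floor. In every case pRb-deficient replicate 3 was the lowest of its group, for all 5 tested probe sets. Its log2 signal lay below the mean of the other pRb-deficient arrays by 0.78 and 0.95 for Itm2a (1423608_at and 1451047_at), by 0.24 and 0.31 for Itm2b (1418000_a_at and 1417999_at) and by 0.57 for Itm2c. Over 17607 probe sets with a geometric mean of at least 200 the same quantity had a median of −0.01, and 5% to 95% of them lay from −0.59 to 0.47. Both Itm2a probe sets and Itm2c were thus near or beyond the lower edge of that range, with 2.26%, 1.29% and 5.28% of these probe sets as low or lower, while the bright Itm2b sets lay inside it. Without this array the log2 fold changes were 8.81 and 5.37 for Itm2a and −0.95 for Itm2c.

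The 250 bases before the annotated start of each gene are shown because Itm2a and Itm2c differ in direction while sharing a domain. Another reason is that Itm2a has been described as a target of GATA and CREB factors. The bases are from RefSeq on GRCm38.p6, where all 3 genes were found, and read 5′ to 3′ on the strand of the gene. Capitals mark a match to a searched motif.
Itm2a, chrX:107403361-107403610, minus strand: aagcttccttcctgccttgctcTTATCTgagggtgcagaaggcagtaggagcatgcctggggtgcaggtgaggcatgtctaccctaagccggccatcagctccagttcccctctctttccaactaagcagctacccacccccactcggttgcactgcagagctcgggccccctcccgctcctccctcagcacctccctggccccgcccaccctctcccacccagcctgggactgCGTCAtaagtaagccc
Itm2b, chr14:73385290-73385539, minus strand: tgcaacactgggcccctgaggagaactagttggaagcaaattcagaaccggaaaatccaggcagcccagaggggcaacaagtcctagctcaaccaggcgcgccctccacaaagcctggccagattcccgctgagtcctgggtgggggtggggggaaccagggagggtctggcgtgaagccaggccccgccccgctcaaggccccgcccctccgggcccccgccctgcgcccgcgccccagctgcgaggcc
Itm2c, chr1:85894260-85894509, plus strand: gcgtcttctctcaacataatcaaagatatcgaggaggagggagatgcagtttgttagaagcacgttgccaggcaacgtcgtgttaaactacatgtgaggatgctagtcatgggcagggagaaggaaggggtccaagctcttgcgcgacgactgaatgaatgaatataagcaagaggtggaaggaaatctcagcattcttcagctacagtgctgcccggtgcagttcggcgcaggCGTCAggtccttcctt

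The Itm2a stretch held 1 GATA match, whose first base is 228 bases before the start, and 1 match to the short CRE form, 16 bases before it. The Itm2c stretch held the short CRE form, also 16 bases before the start, and the Itm2b stretch held none of the motifs searched. Both strands were read. The GATA search used the letters AGATAA or TGATAA, found in 16.6% of 32851 promoters of this length. CRE was searched as TGACGTCA (1.55% of promoters) and in the short form TGACG (17.8%), which lies within the full one. E2F, the factor family that pRb binds, was searched as TTTCGCGC or TTTGGCGC or TTTCCCGC or TTTGCCGC (1.86%), and none of the 3 stretches held these letters. GC content was 62.8% for Itm2a, 68.8% for Itm2b and 50.8% for Itm2c, with 6, 14 and 12 CpG dinucleotides, against medians of 52.4% and 6 over all promoters. A match is a description of letters and not a bound site.

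Of the transcription factors described as acting on Itm2a, Pax3 and Creb1 were lower in pRb-deficient cultures and Gata3 was at background. Pax3, a factor of muscle and neural crest precursors, fell from 635 ± 40.4 to 103 ± 16.6 (SD, n = 3 each), a log2 fold change of −2.63 (standard error 0.16, limma adjusted p = 4.66e-05), and all 3 of its probe sets passed as lower. Creb1, the cAMP-responsive factor, fell from 1555 ± 118 to 1110 ± 113 (log2 fold change −0.49, limma adjusted p = 0.00851), and 2 of its 5 other probe sets also passed as lower. Gata3, a factor of T cells, was at or below 32 on all 6 arrays. Of this list of 3, 2 genes were tested and both were lower, where 23.4% of all genes were.

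The relatives that carry a BRICHOS domain were dim in these cells. Of 6 measured genes, 2 passed as lower, 0 as higher and 4 did not pass, with a median log2 fold change of −0.37. The lower share of 33.3% stands against 23.4% of all genes, and rests on few genes. Cnmd encodes chondromodulin, a cartilage protein that restrains vessel growth, and its signal fell from 155 ± 5.95 to 27.2 ± 13.3 (SD, n = 3 each), a log2 fold change of −2.19 (standard error 0.16, limma adjusted p = 9.41e-05). Gkn3, a stomach protein, went from 325 ± 23.4 to 235 ± 30.6 (log2 fold change −0.47, limma adjusted p = 0.0418). That call was lost when any array other than pRb-deficient replicate 3 was left out, which left Cnmd as the only gene of the list that was lower. The other Gkn3 probe set did not pass (log2 fold change −0.76, limma adjusted p = 0.179). Log2 fold changes that did not pass were −0.29 for Tnmd (tenomodulin, of tendon), 0.51 for Sftpc (surfactant protein C), 0.20 for Gkn1 and −0.45 for Gkn2. Bricd5 was not analysed here.

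Most of the proteases listed around ITM2B processing did not pass the test at their brightest probe set. Of 9 measured genes, 1 was higher, 1 was lower and 7 did not pass, with a median log2 fold change of −0.10. These are 11.1% each, against 18.5% higher and 23.4% lower over all genes. Pcsk6, a convertase of the furin family, rose from 253 ± 36.4 to 1009 ± 224 (SD, n = 3 each), a log2 fold change of 1.98 (standard error 0.19, limma adjusted p = 0.000298). Furin went from 551 ± 57.5 to 419 ± 41.9 (SD, n = 3 each), a log2 fold change of −0.39 (standard error 0.12, limma adjusted p = 0.0421). This call did not hold without any 1 of the arrays other than pRb-deficient replicate 3, with limma adjusted p from 0.0791 to 0.134, so the lower count then was 0. Adam10, which sheds the BRICHOS domain, had means of 5941 ± 337 and 7022 ± 483, a log2 fold change of 0.24 that narrowly missed the threshold (limma adjusted p = 0.0535) and passed it without pRb-deficient replicate 1 (0.0373) and with a floor of 100, a mean signal of at least 100, no floor, a pseudocount or array weights (0.0104 to 0.0464). Of its 3 other probe sets, 1 passed as higher (log2 fold change 0.32). The other convertases gave log2 fold changes of −0.38 for Pcsk1, −0.50 for Pcsk5 and 0.02 for Pcsk7, none of which passed. The intramembrane proteases listed were Sppl2a, Sppl2b and Sppl3, of which Sppl3 is not an SPPL2 protease. At their brightest probe sets they gave −0.10, −0.08 and −0.14 in that order, and did not pass either. Other probe sets differed from these, since both others of Sppl2a passed as lower (−0.68 and −0.55) and 1 of 2 others of Sppl3 passed as higher (0.51). Pcsk2 was not analysed here.

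The next genes were the amyloid precursor protein, which ITM2B and ITM2C bind, and those around its cleavage. Of 21 genes tested, 6 passed as higher, 4 as lower and 11 in neither direction, and the median log2 fold change was −0.02. These shares, 28.6% higher and 19.0% lower, stand against 18.5% and 23.4% of all genes. App itself had means of 12377 ± 843 and 10367 ± 1351 (SD, n = 3 each), a log2 fold change of −0.26 that did not pass (limma adjusted p = 0.119), nor did its other probe sets. Bace1, the β-secretase that makes the first amyloid-forming cut, rose from 763 ± 69.7 to 1182 ± 90.5 (log2 fold change 0.63, limma adjusted p = 0.00244). Higher signals were also found for Adam9, a protease that can cut App, for Aph1b, a γ-secretase subunit, and for Ide, which degrades amyloid peptide. Their log2 fold changes were 1.1, 0.86 and 0.76 in that order. Adam17 and Psenen were the other genes that passed as higher, with log2 fold changes of 0.56 and 0.25, and Psenen lost its call without any 1 of the arrays other than pRb-expressing replicate 1.

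Lower signals were found for Ece2 (log2 fold change −0.97), a peptidase that can degrade amyloid peptide, and for Mme (−1.59), which encodes neprilysin. Psen2 (−0.63), a γ-secretase subunit, and Aplp2 (−0.25), a relative of App, were lower too. The other Psen2 probe set did not pass (log2 fold change 0.16). Aplp2 had 5 probe sets, and of those beside the brightest only 1 passed as lower (log2 fold change −0.40). The count of 4 lower genes fell to 2 without pRb-expressing replicate 2, when Mme and Psen2 no longer passed. It was also 2 without pRb-expressing replicate 3, when Mme and Aplp2 no longer passed. Without pRb-expressing replicate 1, Mme, Psen2 and Aplp2 all lost their calls (limma adjusted p = 0.116, 0.0585 and 0.0594), while other genes of the list gained one. Mme also lost its call without pRb-deficient replicate 2 (limma adjusted p = 0.0857). Of the 4, only Ece2 kept its call whichever array was left out. Apba2 was at or below 32 on all arrays and was not tested. Aph1c was not analysed here.

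**Figure D2:**
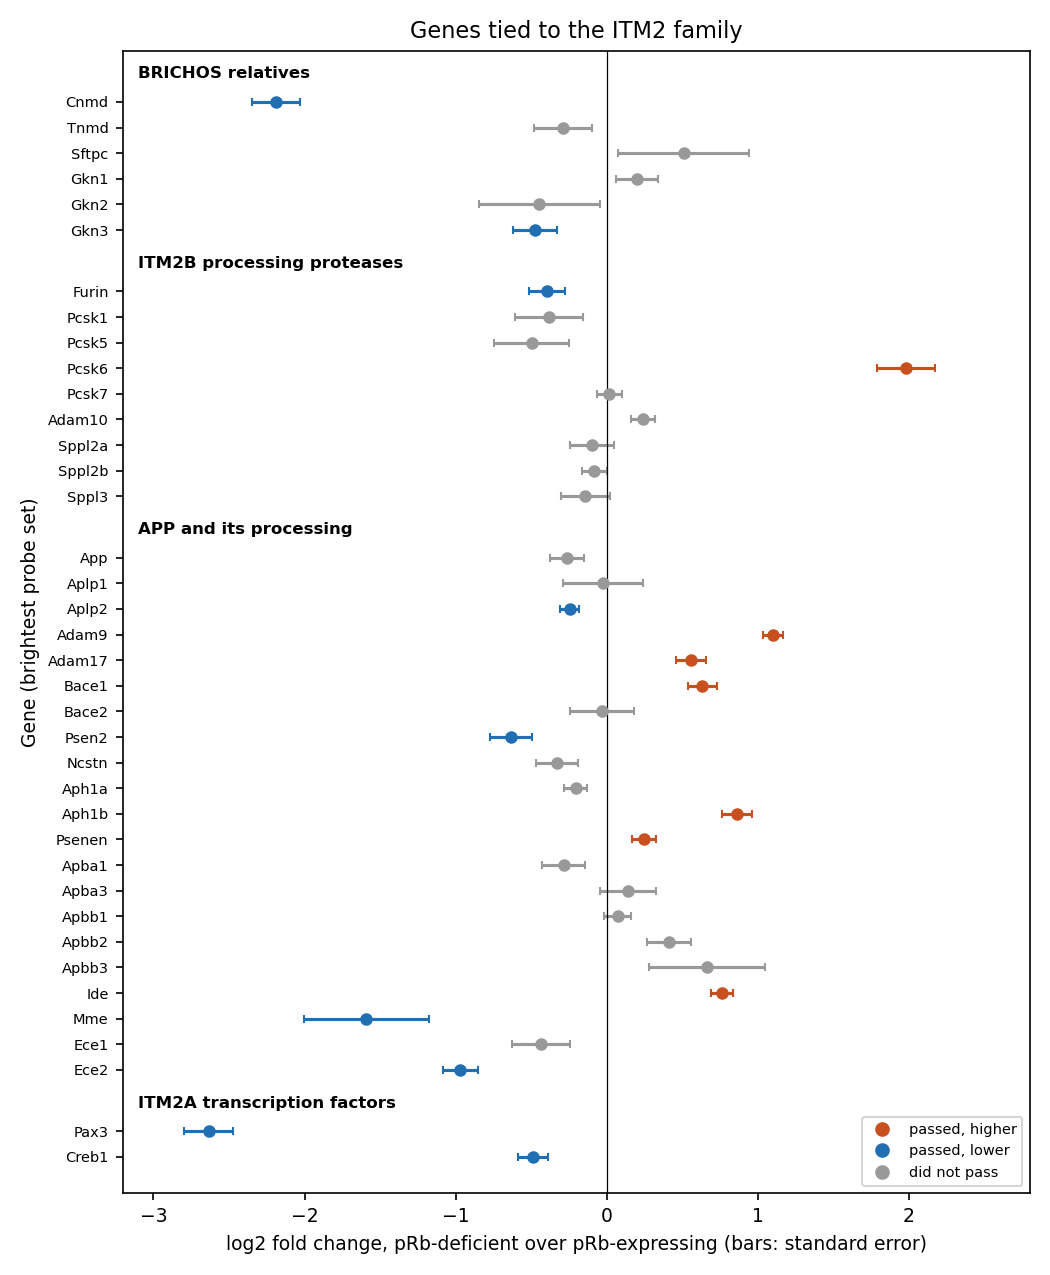
Log2 fold changes of pRb-deficient over pRb-expressing cultures for the brightest probe set of each tested gene tied to the ITM2 family, with standard errors from limma as bars and colours for genes that passed as higher, passed as lower or did not pass. Pax3 and Cnmd stand farthest to the left, at −2.63 and −2.19, and Pcsk6 farthest to the right, at 1.98.

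The position of the 3 genes was set beside the change of their neighbours, in the gene order of RefSeq. On each side the 10 nearest measured protein-coding genes were taken. Around Itm2a, 4 of 20 neighbours passed as higher, 5 as lower and 11 in neither direction, with a median log2 fold change of 0.00 and values from −5.55 to 1.54, against 8.55 and 5.06 for the Itm2a probe sets. Over all genes tested, 18.5% were higher and 23.4% lower, and the shares among these neighbours lay near that background. The count of higher neighbours fell to 2 without pRb-expressing replicate 1, when Gpr174 and Sh3bgrl no longer passed, and Sh3bgrl lost its call without any 1 of the 6 arrays. The nearest on one side were Gpr174, a lysophosphatidylserine receptor, P2ry10b, named after the P2Y receptors, and Lpar4, a lysophosphatidic acid receptor. Gpr174 rose from 57.3 ± 7.57 to 131 ± 36.5 (log2 fold change 1.17, limma adjusted p = 0.0104), a call lost with a floor of 100 (adjusted p = 0.162). P2ry10b went the opposite way, from 1834 ± 61.6 to 39.1 ± 7.19 (log2 fold change −5.55, limma adjusted p = 2.76e-06), and Lpar4 did not pass (0.54). On the other side Gm732 (−0.04) and Brwd3 (−0.16) did not pass, and Hmgn5, a nucleosome-binding protein, rose from 446 ± 54.1 to 1308 ± 243 (log2 fold change 1.54, limma adjusted p = 0.00044).

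Itm2a is X-linked, and genes tied to sex chromosomes also separated the groups. The signal of Xist, which silences an X chromosome in female cells, was 168 ± 8.33 with pRb and 10965 ± 1319 without it, and the Y-linked genes Eif2s3y, Kdm5d and Uty were at or below 32 in all 3 pRb-deficient arrays. Of 483 tested genes of the X chromosome, 25.3% were higher and 18.8% lower, with a median log2 fold change of 0.03 and values from −5.69 to 5.35. With the chromosome median removed, the Itm2a values were 8.52 and 5.03. Sex of the cell line, line of origin and pRb status cannot be told apart on these arrays.

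Near Itm2b the gene order runs from Rcbtb2 through Rb1 and Lpar6 to Itm2b. Rb1 had a log2 fold change of −3.09 and was left out of the counts. Lpar6, a lysophosphatidic acid receptor whose span lies within that of Rb1, had means of 459 ± 31.6 and 491 ± 21.2 (log2 fold change 0.10) and did not pass. Rcbtb2 fell from 1452 ± 50.5 to 1021 ± 133 (log2 fold change −0.52, limma adjusted p = 0.00728). Across from Rb1, Med4, a subunit of Mediator, rose from 672 ± 0.50 to 904 ± 65.6 (log2 fold change 0.43, limma adjusted p = 0.00619), while Sucla2 (0.03) and Lrch1 (0.01) did not pass. Among 19 neighbours, 5 passed as higher, 1 as lower and 13 did not, with a median of 0.03, against 18.5% higher and 23.4% lower over all genes. Over chromosome 14 the median was 0.15, with 31.7% of 518 genes higher and 12.4% lower, and relative to it Itm2b stood at −0.26 (1418000_a_at) and −0.32 (1417999_at).

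Around Itm2c the neighbours leaned the same way as the gene. Of 20, 7 passed as lower, 0 as higher and 13 did not pass, with a median log2 fold change of −0.39, and 3 of them had values under that of Itm2c. The lower share was 35.0%, against 23.4% of all genes. Cab39, a partner of the kinase LKB1, fell from 1730 ± 106 to 1225 ± 13.1 (log2 fold change −0.50, limma adjusted p = 0.00163). Sp100, a nuclear body protein, had means of 120 ± 20.003 and 19.3 ± 19.8, with 2 of 3 pRb-deficient arrays at or below 32. It passed as lower (limma adjusted p = 0.000645), a call lost with a floor of 100 (adjusted p = 0.139). A630001G21Rik (−0.54), Spata3 (−0.41), 2810459M11Rik (−0.03) and Psmd1 (0.00) did not pass. The lean was shared by chromosome 1 as a whole, where 40.6% of 874 genes were lower, 8.47% were higher and the median was −0.33. With that median removed, the log2 fold change of Itm2c was −0.81 in place of −1.14.

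**Figure D3:**
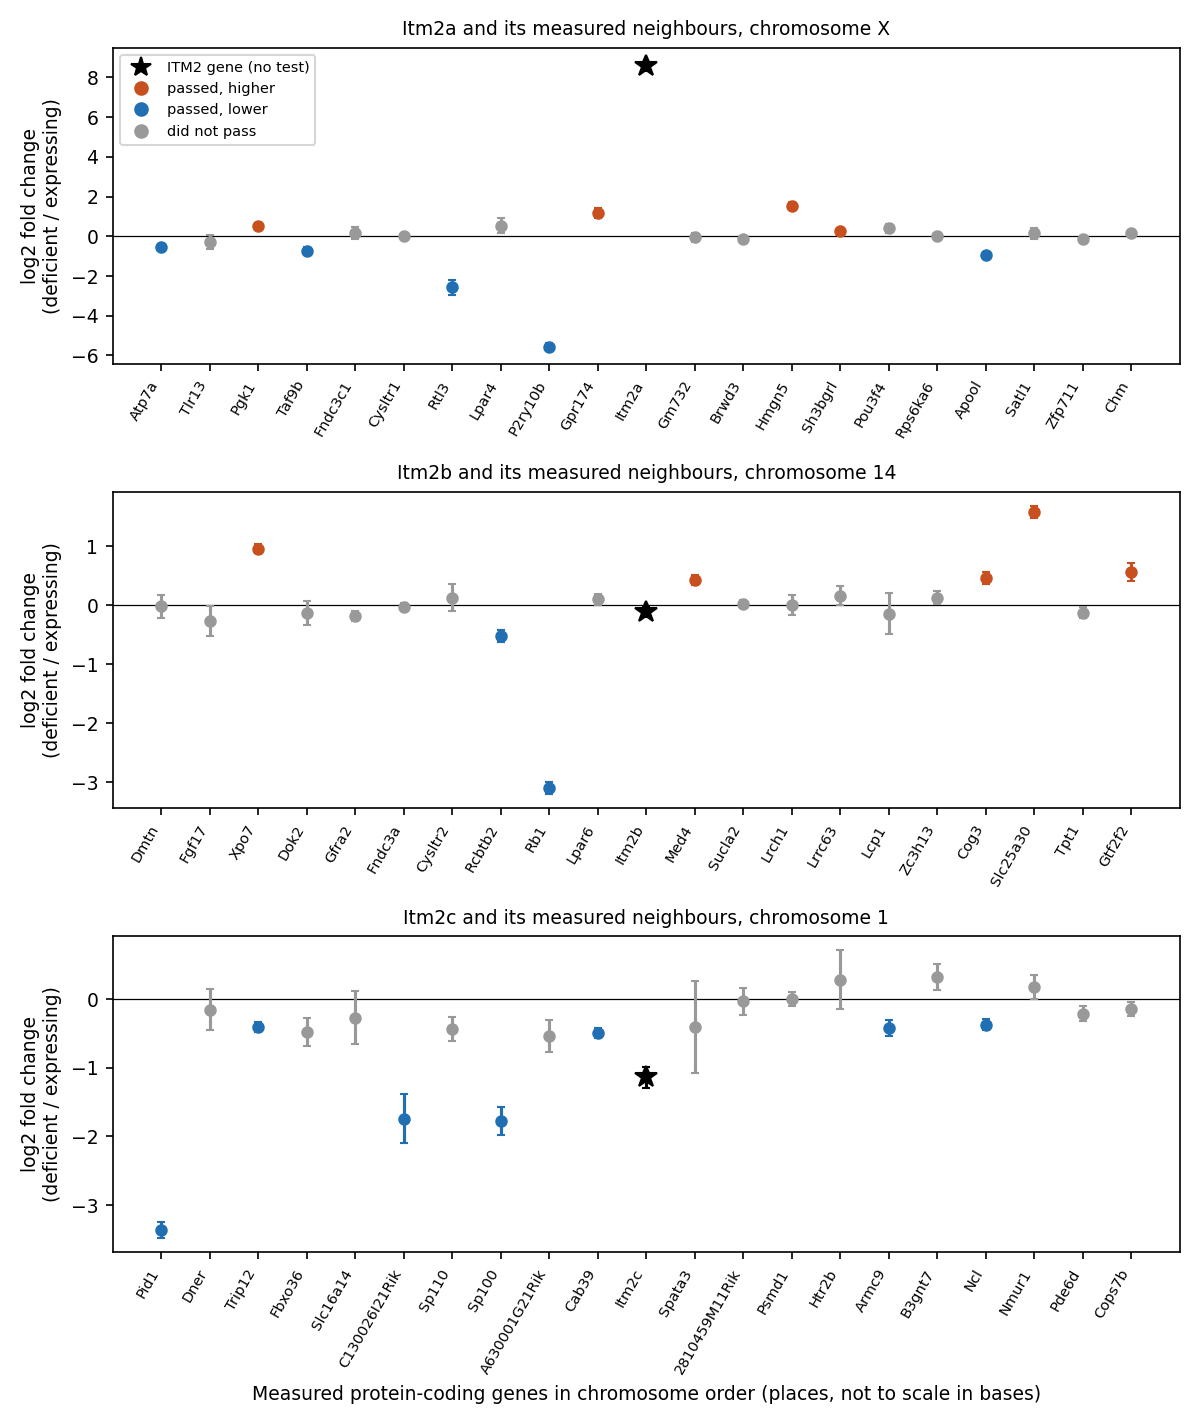
Log2 fold changes of pRb-deficient over pRb-expressing cultures for each ITM2 gene (stars) and its 10 nearest measured genes on each side, in chromosome order and not to scale in bases, with standard errors as bars and Rb1 shown in its place. Itm2a stands at 8.55 among neighbours of 1.54 or less, Itm2b at −0.11 beside Rb1 at −3.09, and Itm2c at −1.14 among neighbours that passed only as lower.

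Genes with the most similar profile over the 6 arrays were found by the root mean square difference of centred log2 signals among the 10165 genes whose brighter group had a mean of 200 or more. For Itm2a they were Mtap (0.37), Cdkn2b (0.80), Dkk2 (0.92), Crabp1 (1.05) and Cnn1 (1.15). All 5 were at or below 32 on all pRb-expressing arrays, as was Itm2a. Mtap, an enzyme of methionine salvage, went from 10.3 ± 9.27 to 9026 ± 529 (SD, n = 3 each), at least 282-fold, and Cdkn2b, which encodes the cell cycle inhibitor p15, from 12.2 ± 3.00 to 4041 ± 810, at least 124-fold. Both lie on chromosome 4. Mtap did not share the low value of Itm2a in pRb-deficient replicate 3, where it read 9263 against 8419 and 9395 in the others.

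For Itm2b the nearest profiles were those of Plin3 (0.03), Chst12 (0.04), B2m (0.04), Med15 (0.05) and Fam160b1 (0.05). Each was lowest in pRb-deficient replicate 3, as Itm2b was, and the groups overlapped for all but B2m, the light chain of MHC class I. For Itm2c they were Zfp874a (0.04), Creg1 (0.05), Myl9 (0.06), Ring1 (0.07) and Chrd (0.07). Their log2 fold changes lay between −1.18 and −1.07, and each was again lowest in pRb-deficient replicate 3. Chrd encodes chordin, an antagonist of bone morphogenetic proteins, and went from 373 ± 5.55 to 178 ± 29.0 (SD, n = 3 each). For all 3 members the genes were chosen by likeness, so a shared low replicate 3 or shared values at the floor follow from that choice. These values describe likeness over 6 arrays of 2 groups and nothing more.

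**Figure D4:**
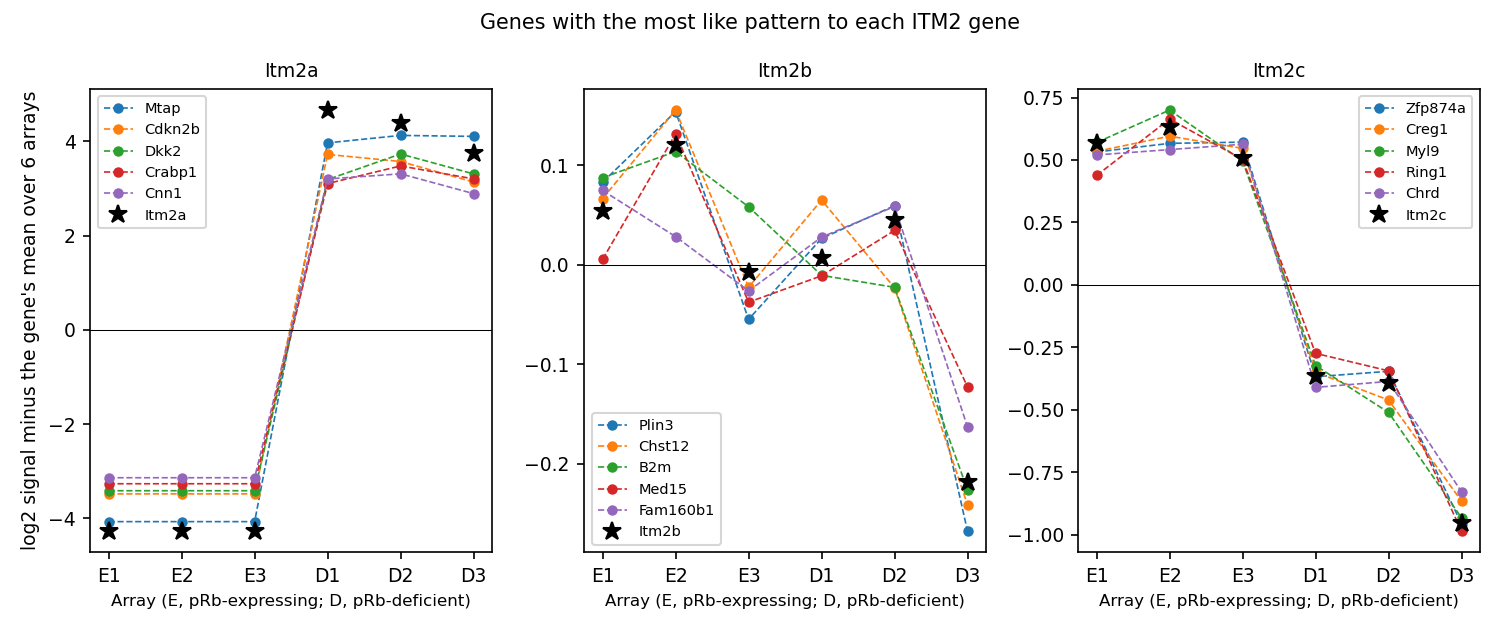
Log2 signal of each ITM2 gene (stars) and of the 5 genes nearest to it in profile (lines), minus each gene's mean over the 6 arrays, where E marks pRb-expressing and D pRb-deficient replicates. The Itm2a panel is flat at the floor in E1 to E3 and high in D1 to D3, and in the Itm2b and Itm2c panels every gene is lowest in D3. The shared shapes follow from the choice by likeness.

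Marker genes of the cell types in which ITM2 genes are known were read on the same arrays. Osteoblast markers had sums over the 9 measured genes of 81716 to 91795 with pRb and 38246 to 54120 without it. Most of each sum came from the bright genes Col1a1, Col1a2, Sparc and Cdh11. Of the 9, 8 were lower (88.9%, against 23.4% of all genes) and Phex was higher (11.1%, against 18.5%). Ibsp, which encodes bone sialoprotein, was at or below 32 on all pRb-deficient arrays, and Sp7, the osteoblast transcription factor osterix, went from 1833 ± 255 to 124 ± 93.5 (SD, n = 3 each). Runx2, Bglap and Spp1 were not analysed here. Chondrocyte markers, of a lineage in which Itm2a is expressed, summed to 4861 to 5489 and 2780 to 3573. Of 11 tested genes, 2 were higher (Acan and Sox5), 5 were lower (Sox9, Sox6, Col2a1, Matn3 and Hapln1) and 4 did not pass. These shares, 18.2% higher and 45.5% lower, stand against 18.5% and 23.4% of all genes. Col10a1 was at or below 32 on all arrays.

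Skeletal muscle and T cell markers, of other cells that express Itm2a, were dim in both groups. For the counts that follow, 18.5% of all genes were higher and 23.4% were lower. Muscle markers summed to 639 to 741 and 641 to 731. Of 9 tested genes, 0 were higher and only Mylpf was lower (11.1%), with Myf5 at or below 32 on all arrays. T cell and hematopoietic markers summed to 506 to 564 and 463 to 502, and 0 of 6 tested genes passed with limma (0 at an unadjusted p under 0.05), with Cd3e and Cd3d at or below 32 on all arrays. Endothelial markers summed to 508 to 648 and 485 to 525, with 0 of 6 passing (0 unadjusted) and Tie1 and Vwf at or below 32 throughout. Neuronal markers, of cells in which ITM2B and ITM2C are studied, summed to 699 to 836 and 972 to 1153. Map2 and Gap43 were higher (28.6% of 7 tested), Tubb3 and Syp were lower (28.6%), 3 did not pass and Snap25 was at or below 32 on all arrays. The part of the osteoblast, chondrocyte and neuronal markers in the ITM2 differences was not tested.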

How the data were processed

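Biotin-labeled RNA from 3 pRb-expressing and 3 pRb-deficient cultures was hybridized by the authors to 1 array each. The deposited intensities are linear MAS5 signals, scaled by the authors to a common trimmed mean, with Affymetrix Expression Console 1.1 per the submitters' processing notes. A 2% trimmed mean computed here was 500.00 on every array, and medians lay between 108.0 and 119.9. No detection calls were used. The number of arrays limits precision.

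After removal of 64 controls, 45037 probe sets remained, of which 34945 had 1 symbol, 932 several and 9160 none in the array annotation. Signals were floored at 32, probe sets at or below 32 on all arrays were dropped, and the log2 values of 38427 were fitted in R 4.3.3 by limma 3.58.1, using lmFit and trended eBayes on group alone, which leaves 4 residual degrees of freedom. Two-sided p-values were adjusted by Benjamini and Hochberg over all probe sets tested, with a threshold of 0.05. A gene was represented by its probe set of highest mean signal. Gene order and promoters are from RefSeq. The steps were tested on simulated data.

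The members and gene lists were chosen with earlier results of these data known. The genes named are all members, Rb1 and Xist, lists of up to 10 genes (of longer lists up to 4 per direction by lowest adjusted p and any named for a role), the 3 nearest neighbours per side and the 5 nearest profiles. Markers named beyond this were chosen after their values were seen, as were Adam17, Psenen, Sh3bgrl and the other probe sets given. Alternatives were other floors and filters, a pseudocount, quantile normalization, median centring, no trend, array weights, a replicate block, leaving out each array, the exact rank test, removal of chromosome medians and the mean of probe sets. Replicate numbers were not taken as pairs, since deviations from the group means correlated at only 0.02, −0.03 and 0.06 between arrays of equal number.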

Additional observations from a re-analysis of the deposited data

How the results depend on the processing

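Over the alternatives run, every Itm2a value stayed positive and every Itm2c value negative. The brighter Itm2a probe set (log2 fold change 8.55) gave 6.90 with a floor of 100, 9.38 with no floor beyond a signal of 1 and 7.86 with a pseudocount of 32, since its pRb-expressing arrays lie at the floor. The mean of both Itm2a probe sets was 6.80. The brightest Itm2b probe set reversed to 0.042 with quantile normalization, and the cause was not tested. With chromosome medians removed, Itm2b stood at −0.26 (1418000_a_at) and −0.32 (1417999_at), and Itm2c at −0.81. Leaving out 1 array at a time gave 8.35 to 8.81 and 4.79 to 5.37 for Itm2a, −0.16 to −0.03 and −0.25 to −0.07 for Itm2b and −1.24 to −0.95 for Itm2c.

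Small lists moved by 1 gene. Among the proteases listed around ITM2B, 2 were higher with a floor of 100, a mean signal of at least 100, no floor, a pseudocount, array weights or the mean of probe sets. Lower proteases numbered 2 with array weights or the mean of probe sets and 0 with median centring, quantile normalization or no intensity trend. One-array-out ranges were 1 to 2 higher and 0 to 1 lower. Lower BRICHOS relatives numbered 1 with a mean of at least 100, where Cnmd was not tested and Gkn3 kept its call. They numbered 1 with median centring or quantile normalization, where Gkn3 lost its call, and 1 to 2 with an array left out. Lower genes around App numbered 9 with array weights and 2 to 4 with an array left out, and higher neighbours of Itm2a 2 to 4. Array weights also gave 2 lower neighbours of Itm2b, 1 higher neighbour of Itm2c and 115 higher genes on chromosome 1 in place of 74. The array-wide count of 13433 probe sets was 19329 with array weights and 10149 to 12960 with an array left out. The exact Wilcoxon rank test, whose smallest p for 3 against 3 is 0.1, passed 0 probe sets, and so 0 genes of every list, of the neighbours and of the chromosomes (0 at an unadjusted p under 0.05).

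With the replicate number as a block, 12367 probe sets passed, 1 BRICHOS relative and 0 proteases were lower, and the ITM2 values were as without it. Gkn3 (limma adjusted p = 0.0613), Furin (0.0847), Aplp2 (0.0614), Psenen (0.0661) and Sh3bgrl (0.0947) lost their calls, and Apbb2 and Fbxo36 gained one. The samples share only a number, so this is no measure of a weaker effect. Depth is not defined for arrays. Signals at or below 32 carry no order, which bounds Itm2a and its nearest profiles in pRb-expressing cultures.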
